A study of Gossypium hirsutum with 12 samples.

Results

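Protein phosphatases of type 2C (PP2Cs) of abscisic acid (ABA) signaling were followed in the primary root tip of cotton through 7 genes, of 70477 in the count table. The 7 were chosen by gene ID from the differentially accumulated transcripts (DATs) named as PP2Cs in the paper, which are transcripts called in the same direction in water-stressed roots at 48 h against both well-watered controls. By the Arabidopsis genes they match, Gh_D04G0015 and Gh_A05G3589 are named protein phosphatase 2CA, Gh_A05G0782 and Gh_D05G3907 are named highly ABA-induced PP2C gene 2, and Gh_A12G2380, Gh_A04G0881 and Gh_D11G2776 are named only as PP2C family proteins. All 7 passed the filter on low counts. Gh_D04G0015, Gh_A05G0782 and Gh_D05G3907, with at most 6 reads in any well-watered library, passed it only through the stressed groups where they are high. The name PP2C family protein does not by itself place Gh_A12G2380, Gh_A04G0881 and Gh_D11G2776 in ABA signaling. The paper puts Gh_A12G2380 in an ABA category together with the 2CA pair, and Gh_A04G0881 and Gh_D11G2776 are in no such category there.

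Seedlings of cotton (Gossypium hirsutum, genotype AU90810) were grown in the dark in vermiculite and harvested after transplanting. Well-watered seedlings at a water potential of −0.02 MPa gave 12 mm tips at 24 h (WW24) and 48 h (WW48), and water-stressed seedlings at −1.0 MPa gave 6 mm tips at 24 h (WS24) and 48 h (WS48). Each group had 3 libraries, from tips pooled across seedlings in what the paper describes as independent experiments, 12 libraries in all. WW24 was the developmental control, of about the same root length as WS48, and WW48 the temporal control. WS24 had a control of its own age in WW24 but none of its own root length, so in WS24/WW24 stress and the stage of root growth cannot be told apart.

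ABA is made when water becomes short, and in Arabidopsis its signal passes through a chain of inhibitors. Without the hormone, PP2Cs of clade A (among them 2CA and the HAI proteins, for highly ABA-induced) hold the SnRK2 kinases inactive by removing their phosphate. With the hormone, receptors of the PYR1-like family bind it and block the phosphatases, and the freed kinases activate ABF transcription factors. ABF targets include genes of the same phosphatases, so that their transcripts mark the response while their proteins oppose it.

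Libraries held 6433993 to 11316010 reads in genes (median 10000113). Levels are given as CPM, the counts of a gene scaled to a common library size with TMM, without correction for gene length, so they are compared between groups and not between genes. WW24 replicate 2 stood apart from the other WW24 libraries on the first principal component (90.4 against −29.1 and −6.15), toward the WW48 libraries (97.6 to 147.7), and results that turn on it are given with and without it. On the second component it lay near its group (−82.1 against −93.9 and −84.8). Replicate 2 was also highest on the first component in WW48 (147.7 against 104.2 and 97.6) and in WS48 (−8.87 against −53.2 and −52.0). Tip length followed treatment, and marker transcripts differed with it. The markers were taken by function from the DATs of the paper, so a change at 48 h was a condition for being listed. They are no independent readout of tissue make-up. The summed CPM of 10 transcripts listed for xylem was 233 to 967 in WW24 and 33.3 to 50.1 in WS24. They were laccases and xylem serine peptidase 1 (mean 3.25 CPM in WW24), so this sum reads mainly laccase transcripts. The summed CPM of 10 transcripts of dividing cells was 387 to 419 in WW24 and 918 to 991 in WS24. The latter sum followed 4 tubulin beta 8 transcripts (251 to 335 in WW24 and 855 to 915 in WS24), and the other 6 summed to 83.8 to 168 and 62.8 to 75.3 CPM. In such bulk tissue fewer cells of a type and less RNA per cell cannot be told apart.

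The 2CA genes Gh_D04G0015 and Gh_A05G3589 stood below 3 CPM in every well-watered library and above 40 CPM in every stressed library. Gh_D04G0015 measured 0.123, 0 and 0.184 CPM in WW24 replicates 1 to 3, which is 1, 0 and 2 reads. In WS24 it measured 72.4, 61.9 and 65.3 CPM from 775, 646 and 643 reads. In WW48 it measured 0.103, 0.308 and 0.174 CPM, and in WS48 58.6, 44.9 and 50.9 CPM. Every stressed library lay above every well-watered library, with no intermediate value. The WW24 library without a read allows up to 0.432 CPM, the level of 3 reads there. Its partner Gh_A05G3589 had a measurable level in the well-watered tips, at 1.35, 2.88 and 1.75 CPM in WW24 and 2.06, 1.23 and 0.696 CPM in WW48. It reached 79.7, 73.4 and 74.9 CPM in WS24 and 59.3, 41.0 and 59.1 CPM in WS48.

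The genes of the highly ABA-induced PP2C gene 2 repeated the pattern. Gh_A05G0782 had 2 reads in the 3 WW24 libraries together and 1 read in the 3 WW48 libraries, or 0.245, 0 and 0 CPM and 0, 0.154 and 0 CPM. It had 15.4, 13.9 and 17.2 CPM in WS24 and 17.6, 13.7 and 19.6 CPM in WS48. Of the 6 well-watered libraries 4 held no read of it, and the floor of 3 reads in those libraries was 0.261 to 0.432 CPM. Gh_D05G3907 measured 0.736, 0.432 and 0.184 CPM in WW24 and 0.412, 0.308 and 0.435 CPM in WW48. Under stress it measured 25.5, 21.4 and 24.9 CPM at 24 h and 25.5, 19.8 and 19.4 CPM at 48 h, and the lowest of these lay far above the highest well-watered value.

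The 3 PP2C family proteins divided by direction. Gh_A12G2380 rose from 3.80, 4.75 and 2.67 CPM in WW24 to 32.8, 30.2 and 37.6 CPM in WS24, with 3.30, 4.15 and 2.52 CPM in WW48 and 33.1, 28.1 and 25.9 CPM in WS48. Gh_A04G0881 was lower under stress, at 11.3, 23.2 and 13.6 CPM in WW24 and 18.2, 16.5 and 12.4 CPM in WW48 against 6.45, 3.35 and 2.84 CPM in WS24 and 6.05, 6.08 and 5.40 CPM in WS48. Gh_D11G2776 was also lower, at 16.9, 27.2 and 15.4 CPM in WW24 and 17.1, 15.1 and 11.6 CPM in WW48 against 7.94, 8.62 and 9.75 CPM in WS24 and 7.29, 5.72 and 7.09 CPM in WS48. The highest WW24 value of both decreased genes was that of replicate 2, the library that stood apart.

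**Figure D1:**
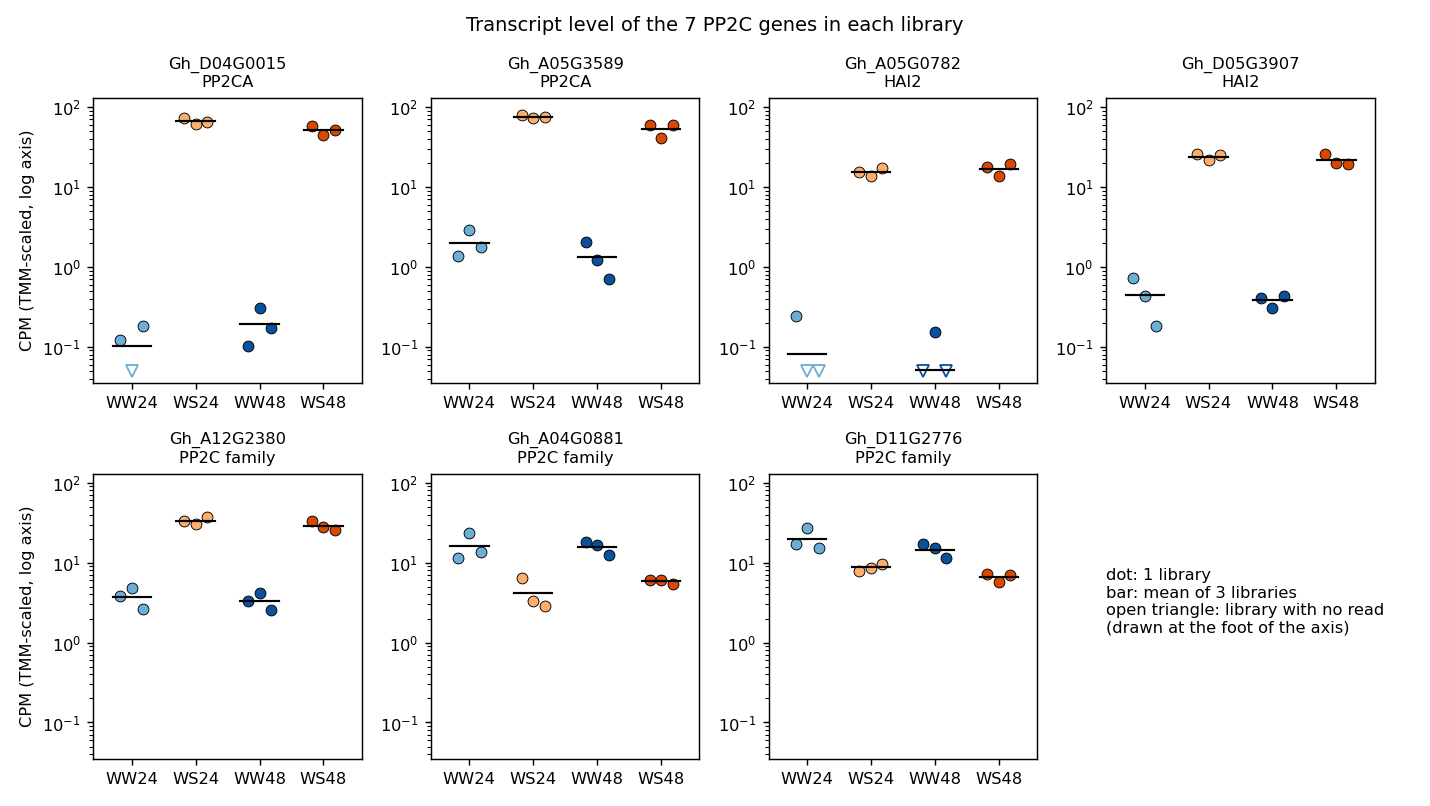
Transcript level (CPM after TMM scaling, log axis) of the 7 PP2C genes in each of the 12 libraries by group. Dots are libraries, bars are means of 3 libraries and open triangles are libraries with no read. In 5 genes the stressed libraries lie above all well-watered libraries, as in 5.43% of all genes, and in Gh_A04G0881 and Gh_D11G2776 they lie below, as in 5.28%. The selection used the WS48, WW24 and WW48 libraries.

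The contrasts on which the 7 genes were selected, WS48/WW24 and WS48/WW48, are described without a test, since a change in them was the condition for being listed. At the threshold of a call, with 0.05 as the highest adjusted p and 1 as the smallest log2 change in either direction, 3.57% of 43938 genes were called higher and 3.9% lower in WS48/WW24, and 3.18% and 5.98% in WS48/WW48. The log2 fold changes against WW24 and WW48 were 4.76 and 5.33 for Gh_A05G3589, 5.61 and 5.72 for Gh_D05G3907, and 2.98 and 3.15 for Gh_A12G2380. For Gh_D04G0015 and Gh_A05G0782, with so few well-watered reads, the ratio of reads is the clearer measure. The WS48 libraries held 445 times the Gh_D04G0015 reads of WW24 (95% counting interval 152 to 2158) and 284 times those of WW48 (122 to 877), after scaling to depth. For Gh_A05G0782 the ratios were 218 (60.0 to 1805) and 465 (83.0 to 18389.6), the last against 1 read. The decreases were −1.44 and −1.42 for Gh_A04G0881 and −1.56 and −1.12 for Gh_D11G2776, the last being the value nearest to the threshold among the 7 (−0.95 without WW48 replicate 1). Gh_A11G2459, another PP2C family protein, stood at −1.27 in WS48/WW48, past the threshold on size, but did not pass on adjusted p. Its WW48 libraries ran from 5.57 to 14.3 CPM.

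The WS24 libraries took no part in the selection, and WS24/WW24 asks whether the same changes were present a day earlier. It shares the WW24 libraries with a selecting contrast, and its values were known when the 7 genes were picked, so it is no independent check. By edgeR's quasi-likelihood test 5 of the 7 were higher and 2 lower in WS24, against 3.75% higher and 4.93% lower of all genes tested, whose median log2 fold change was 0.0004. The groups did not overlap for any of the 7, a separation found upward in 18.3% and downward in 14.9% of all genes. Gh_D04G0015 had the lowest p of the 43938 genes (adjusted p = 4.45e-08), with 577 times the reads of WW24 (197 to 2799) from 2064 reads against 3. Its rise was the 10th largest fitted, for a gene that passed the filter on low counts only through its stressed libraries.

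Gh_A05G3589, the other 2CA gene, rose by 5.28 on the log2 scale (SE 0.31, edgeR adjusted p = 1.54e-06), a fold change from 1.99 ± 0.793 to 76.0 ± 3.26 CPM (SD, n = 3). Of the highly ABA-induced pair, Gh_D05G3907 rose by 5.76 (SE 0.30, adjusted p = 5.02e-07), from 0.45 ± 0.276 to 23.9 ± 2.18 CPM. Gh_A05G0782 rose from 2 reads to 479, a ratio of 201 (55.3 to 1662), with an adjusted p of 5.12e-06. Both genes of this pair passed the filter on low counts only through their stressed libraries. The family protein Gh_A12G2380 rose by 3.19 (SE 0.23, adjusted p = 5.20e-06), from 3.74 ± 1.04 to 33.5 ± 3.76 CPM, the smallest rise of the 5.

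Of the 2 genes that decreased, Gh_A04G0881 fell by 1.91 (SE 0.33, adjusted p = 0.0024), from 16.0 ± 6.30 to 4.21 ± 1.95 CPM. Gh_D11G2776 fell by 1.17 (SE 0.23, adjusted p = 0.00547), from 19.8 ± 6.43 to 8.77 ± 0.914 CPM. Without WW24 replicate 2 the change of Gh_D11G2776 was −0.86 (adjusted p = 0.00583), short of the threshold on size, and 1 gene in place of 2 was called lower. The change of Gh_A04G0881 was −1.54 without it and still passed, as did the 5 rises, at 3.40 to 8.63.

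That library also held the largest xylem sum of its group, 967 CPM against 233 and 328, and the largest sums of 5 phloem transcripts (67.9 CPM against 27.9 and 30.1) and 2 root hair transcripts (596 against 178 and 216). Of these markers, listed as DATs, all 10 xylem transcripts, 3 of the 5 phloem and both root hair transcripts were lower in WS24/WW24. Over all genes 3.75% were called higher and 4.93% lower. No marker was at 0 in either group. The single root cap transcript was higher in WS24 (7.52 to 8.78 CPM against 0.719 to 2.58), and of the 10 transcripts of dividing cells 5 were higher (4 of tubulin beta 8 and CYCLIN D1;1) and 2 lower (cyclin p3;1 and cyclin p3;2). Whether tissue make-up had a part in the decreases and rises of the PP2C genes was not tested.

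**Figure D2:**
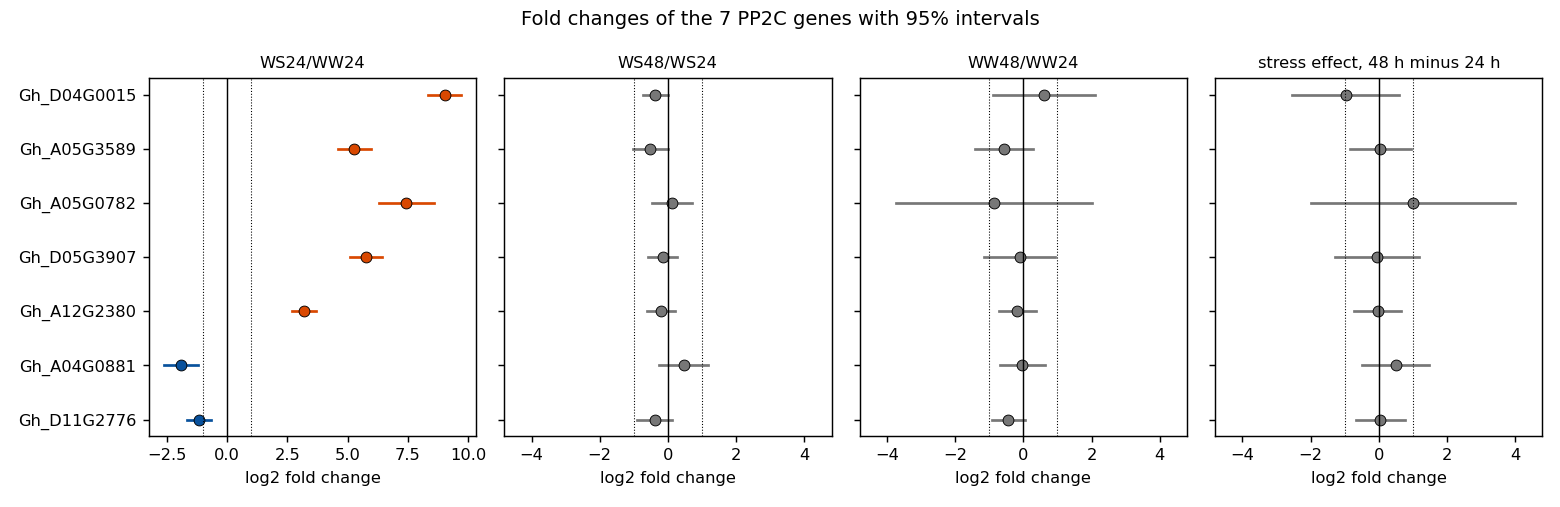
Log2 fold change of the 7 PP2C genes with its 95% interval in WS24/WW24, WS48/WS24, WW48/WW24 and the difference of the stress effects (48 h minus 24 h). Orange and blue mark calls higher and lower, grey marks genes that did not pass, and dotted lines stand at a log2 fold change of 1 in either direction. The 7 colored points are all in WS24/WW24, from −1.91 to 9.02, and the first panel has a wider axis than the others.

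Between 24 h and 48 h of stress (WS48/WS24) none of the 7 passed by edgeR, DESeq2 or limma-voom, where 0.127% of all genes were called higher and 0.255% lower. At an unadjusted p under 0.05 by edgeR there were 2, the 2CA genes, and 6214 of all 43938 genes tested. Gh_D04G0015 averaged 66.5 ± 5.38 CPM in WS24 and 51.5 ± 6.89 CPM in WS48 (log2 fold change −0.37, 95% interval −0.73 to −0.01, adjusted p = 0.337). Gh_A05G3589 averaged 76.0 ± 3.26 and 53.1 ± 10.5 CPM (−0.52, −1.03 to −0.01, adjusted p = 0.345). In both the 3 WS48 libraries lay below the 3 WS24 libraries, as they did for Gh_D11G2776 (−0.39, −0.90 to 0.12). That order was found in 16.7% of all genes, against these 3 of the 7.

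The other 4 genes had overlapping WS24 and WS48 libraries. Their log2 fold changes were −0.21 for Gh_A12G2380 (−0.62 to 0.21), −0.15 for Gh_D05G3907 (−0.57 to 0.27), 0.13 for Gh_A05G0782 (−0.46 to 0.72) and 0.47 for Gh_A04G0881 (−0.26 to 1.19). The intervals of Gh_A05G3589 and Gh_A04G0881 reach past a log2 fold change of 1, and those of the other 5 genes do not. With the WS24 and WS48 libraries fitted alone, the adjusted p was 0.0383 for Gh_D04G0015 and 0.0186 for Gh_A05G3589, at changes of −0.36 and −0.51 that are below the threshold on size.

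In well-watered roots (WW48/WW24) again none of the 7 passed, with no unadjusted p under 0.05 by edgeR and no call by DESeq2 or limma-voom. Over all 43938 genes 3.53% were called higher and 1.26% lower, and 10984 had an unadjusted p under 0.05 by edgeR. The WW24 and WW48 libraries overlapped for all 7. Estimates were close where reads were many, at −0.03 for Gh_A04G0881 (−0.68 to 0.63), −0.17 for Gh_A12G2380 (−0.71 to 0.37) and −0.44 for Gh_D11G2776 (−0.93 to 0.05). They were wide where reads were few, at 0.60 for Gh_D04G0015 (−0.90 to 2.10) and −0.87 for Gh_A05G0782 (−3.75 to 2.01). A difference of several fold between the controls would not have been detectable in Gh_A05G0782 at this depth.

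Whether the stress effect differed between 48 h and 24 h was tested directly. None of the 7 passed, and by edgeR 0% of all genes were called in either direction (lowest adjusted p 0.0664, with 5160 genes at an unadjusted p under 0.05). Limma-voom called 0% as well, and DESeq2 called 0.484% higher and 0.532% lower, none of the 7 among them. The difference was near 0 for Gh_A12G2380 (−0.03, −0.73 to 0.66), Gh_A05G3589 (0.05, −0.86 to 0.95) and Gh_D11G2776 (0.05, −0.66 to 0.76). It was −0.97 for Gh_D04G0015 (−2.55 to 0.61) and 1.00 for Gh_A05G0782 (−1.99 to 3.99), wide because of the well-watered reads.

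The make-up of the reads of the 7 genes is a description, since the genes were selected for rising or falling in WS48 and a rise of 5 lowers the share of the others. Gh_A04G0881 and Gh_D11G2776 held 81.9% to 86.2% of them in WW24 and 83.7% to 86.2% in WW48, but 5.42% to 5.99% in WS24 and 6.43% to 7.41% in WS48. The 2CA pair held 4.27% to 5.72% in WW24 and 3.13% to 5.25% in WW48, and 60.3% to 63.6% in WS24 and 53.9% to 58.7% in WS48. These are shares of reads and not of molecules, so that a change of share between groups can be read but not the order of genes within a library. The summed level of the 7 genes was 33.8 to 58.4 CPM in WW24 and 27.8 to 41.2 CPM in WW48, and 213 to 240 CPM in WS24 and 159 to 207 CPM in WS48.

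**Figure D3:**
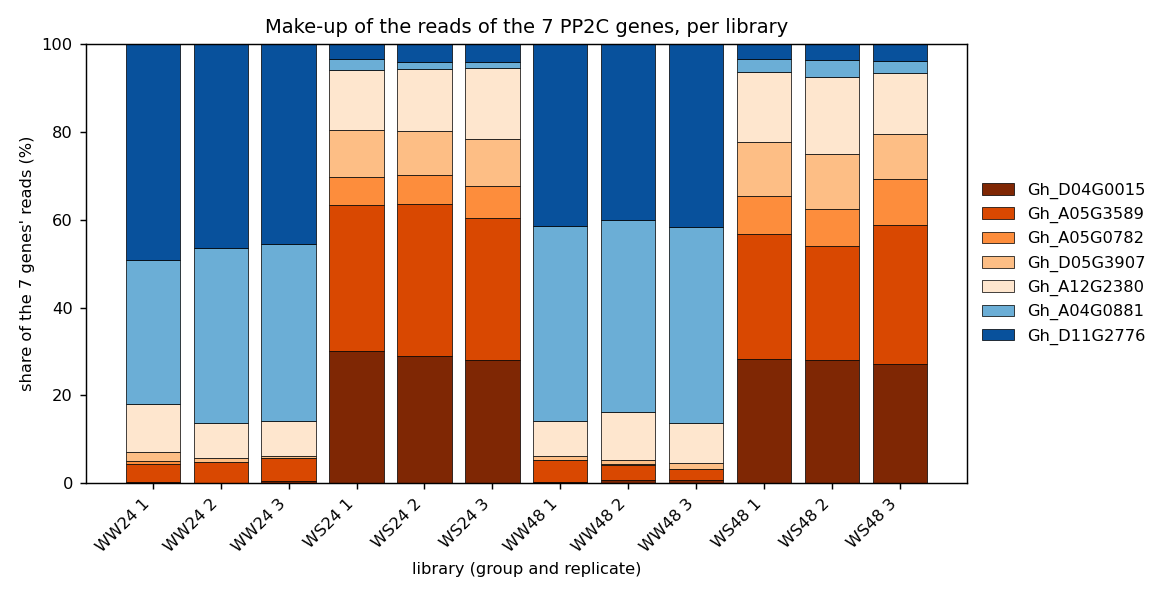
Share of the reads of the 7 PP2C genes (%) that fell to each gene, in each of the 12 libraries. The blue segments, Gh_A04G0881 and Gh_D11G2776, hold 81.9% to 86.2% of the reads in the well-watered libraries and 5.42% to 7.41% in the stressed libraries.

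The ratio of reads between genes of the same name changed between groups, and only this change, not the ratio itself, can be read without gene lengths. For each read of Gh_A05G3589 there were 0.06 reads of Gh_D04G0015 in WW24 (3 against 50) and 0.139 in WW48, and 0.875 in WS24 and 0.975 in WS48. For each read of Gh_D05G3907 there were 0.182 and 0.0909 reads of Gh_A05G0782 in WW24 and WW48, from 2 against 11 and 1 against 11 reads, and 0.646 and 0.776 in WS24 and WS48. Among family proteins, the reads of Gh_A12G2380 per read of Gh_D12G2508 went from 0.679 in WW24 to 1.29 in WS24, and those of Gh_D11G2776 per read of Gh_A11G2459 from 1.38 to 2.05. These shifts were not tested, and those of Gh_A05G0782 rest on few well-watered reads. Near-identical copies on the A and D subgenomes may share or lose reads, which limits any such ratio.

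A further 9 DATs are named as PP2Cs in the paper. They were picked there on the same libraries, so their values and calls in WS24/WW24 are a description and no independent check. In WS24/WW24 8 were higher and 1 lower (median log2 fold change 2.27), against 3.75% higher and 4.93% lower of all genes tested. Gh_A09G1649, also named highly ABA-induced PP2C gene 2, rose from 2 reads in the WW24 libraries to 152 in WS24. Another 2 genes are named highly ABA-induced PP2C gene 1. Of these Gh_A05G3590, whose ID follows that of Gh_A05G3589, rose from 0.321 to 17.1 CPM (log2 fold change 5.73), and Gh_A12G2274 from 0.341 to 6.33 CPM (4.27). Gh_A13G0184, again named highly ABA-induced PP2C gene 2, rose by 2.34.

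The other rises among the 9 genes were smaller. Gh_A10G1998, the third gene named 2CA, rose from 16.1 to 53.2 CPM (1.73), well short of the 5.28 of Gh_A05G3589. Gh_A07G0123 rose from 46.8 to 164 CPM (1.81) and Gh_D07G2383 from 66.2 to 153 CPM (1.21), both PP2C family proteins. Gh_D12G2508, which the paper groups with Gh_A12G2380, rose by 2.27 against the 3.19 of that gene. Gh_A11G2459 fell by 1.78 from 14.8 ± 10.3 to 4.26 ± 0.373 CPM, with 7.36, 26.6 and 10.5 CPM in WW24. Without WW24 replicate 2 its change was −1.06, and the 8 rises were 1.48 to 6.24. None of the 9 passed in WS48/WS24, WW48/WW24 or the difference of the stress effects by edgeR, DESeq2 or limma-voom. At an unadjusted p under 0.05 by edgeR there were 1, 1 and 2 of them. Of all 43938 genes tested, 6214, 10984 and 5160 had such a p.

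**Figure D4:**
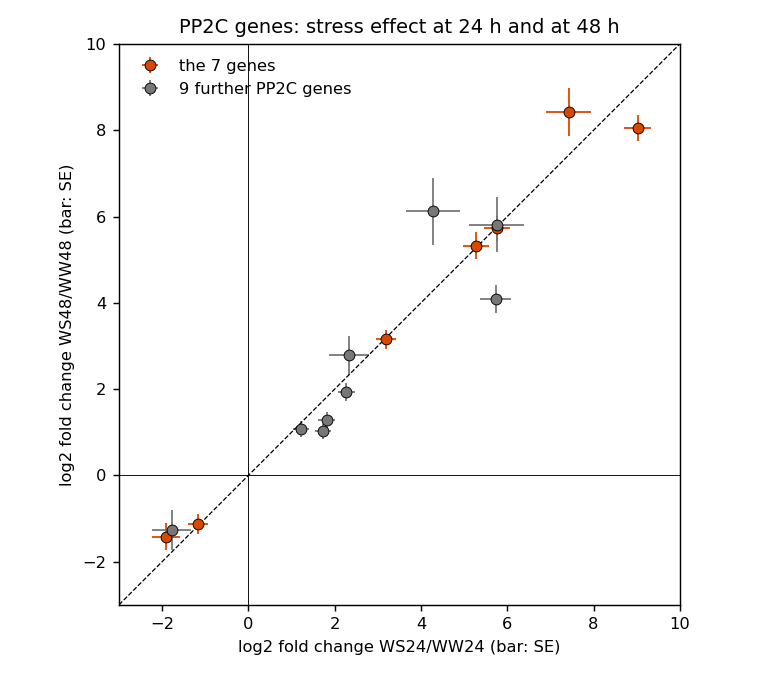
Log2 fold change of 16 PP2C genes at 24 h of stress (WS24/WW24, horizontal) and at 48 h (WS48/WW48, vertical), comparisons with no library in common, with SE bars and a dashed line of equal change. All 16 genes were listed for their change at 48 h. Gh_A04G0881, Gh_D11G2776 and Gh_A11G2459 lie below 0 at both times and the other 13 genes above.

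The rest of the ABA pathway was read in WS24/WW24, from lists of DATs in the paper that were likewise selected on these libraries. Over all genes 3.75% were called higher and 4.93% lower there. All 9 genes of PYR1-like receptors, which sit upstream of the phosphatases and inhibit them when bound to ABA, were lower in WS24 (median −3.05). The PYR1-like 4 gene Gh_A05G2630 went from 87 reads in the WW24 libraries to 0 in WS24, at least 11.5-fold lower at a floor of 3 reads per library. The receptors moved against the 5 raised phosphatase genes and in the direction of Gh_A04G0881 and Gh_D11G2776.

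On the supply of the hormone, all 6 NCED genes, whose enzyme makes the limiting step of ABA synthesis, were higher (median 4.24). The widest change was that of Gh_A13G1311, named NCED3, which rose from 0.192 to 10.3 CPM. It had 4 reads in WW24, all in replicate 2, and 317 in WS24, so the size of its rise is uncertain. Of 3 CYP707A genes, whose enzymes break ABA down, 1 was higher (Gh_D07G0979, from 52.3 to 206 CPM) and 2 were lower.

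Downstream, all 7 genes of the transcription factor ABF2 and of AFP proteins, the latter partners of the factor ABI5 and negative regulators of ABA response in Arabidopsis, were higher (median 2.89). The AFP2 gene Gh_D13G0860 rose by 3.85 on the log2 scale. All 4 ABA-responsive genes were higher (median 4.03), led by the dehydrin Gh_D11G1826 (7.05), a protein of drying seeds and stressed tissue. The dehydrin had 2 reads in WW24, all in replicate 2, and 372 in WS24, so the size of its rise is uncertain. All 7 GRAM domain genes named as ABA-responsive-related were lower (median −2.02, Gh_A12G1208 −3.09), and both genes named G protein coupled receptor were higher (median 1.81, Gh_A01G0491 1.92). In WS48/WS24 0 of the 38 genes of these 7 lists passed by edgeR (8 at an unadjusted p under 0.05) and 0 by DESeq2 or limma-voom. Of all 43938 genes, edgeR called 0.127% higher and 0.255% lower there, and 6214 had an unadjusted p under 0.05. In WW48/WW24 1 NCED gene was higher and 1 CYP707A gene lower by edgeR, which called 3.53% of all genes higher and 1.26% lower. DESeq2 called 5 of the 38 genes and limma-voom 1. The shares of all genes called by these tools are not given here, so the counts are not read as a result.

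**Figure D5:**
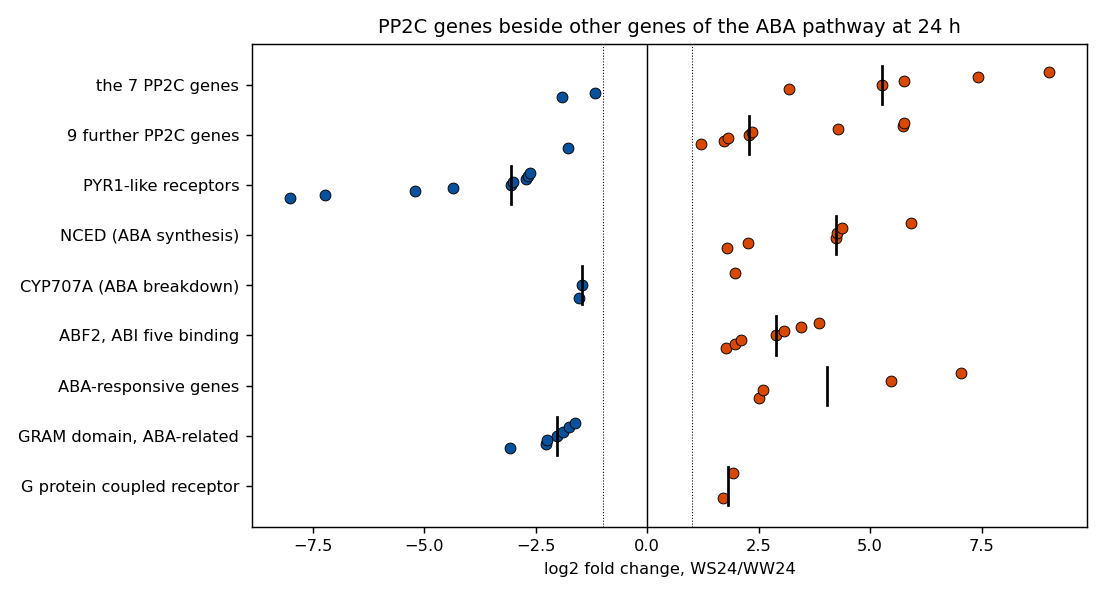
Log2 fold change in WS24/WW24 of the 7 PP2C genes, 9 further PP2C genes and 7 lists of other ABA genes. Dots are genes (orange higher, blue lower), vertical strokes are medians of a list and dotted lines stand at a log2 fold change of 1 in either direction. The PYR1-like receptors are all below 0 (median −3.05) and the NCED genes all above (median 4.24), and the leftmost receptor, Gh_A05G2630, had no read in WS24, so that its place depends on the prior count.

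Genes with a like pattern were sought among 1331 other DATs with a function and a mean of at least 1 CPM, by the correlation of log2 CPM over the 12 libraries. The libraries fall into stressed and well-watered, so a high correlation mostly says that a gene follows that divide. It exceeded 0.95 with 200 to 233 tested genes for each of the 5 raised genes and with 51 and 62 for Gh_A04G0881 and Gh_D11G2776. Closest to Gh_D04G0015 were Gh_D04G0517, carbonic anhydrase 1, and Gh_D02G1254, sphingoid base hydroxylase 2 (both r = 0.995). The dehydrin Gh_D11G1826 was closest to both Gh_A05G3589 (0.993) and Gh_A12G2380 (0.995). After it came a bHLH protein, Gh_A05G0559 (0.992), for the first and a P-loop hydrolase, Gh_D03G0699 (0.993), for the second.

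Gh_D01G1342, of the lipid-transfer protein superfamily, was among the closest to both genes of the highly ABA-induced PP2C gene 2, at 0.992 for each. Beside it stood Gh_D07G1882, of the ERD (early-responsive to dehydration) family, for Gh_A05G0782 (0.991) and Gh_A06G1610, a TPR-like protein, for Gh_D05G3907 (0.996). Closest to Gh_A04G0881 were Gh_D08G0272, of the wall-modifying xyloglucan endotransglucosylase/hydrolases (0.977), and Gh_D08G2088, RPM1 interacting protein 4 (0.971). Closest to Gh_D11G2776 were Gh_D10G2009, deoxyhypusine synthase (0.982), and Gh_A10G1937, UDP-XYL synthase 6 (0.978), an enzyme that makes the xylose donor of wall polymers. The decreased PP2C genes correlated with each other at 0.80, below the 0.97 to 0.99 found among the 5 raised genes, whose changes under stress were larger in size.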

How the data were processed

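RNA of cotton root tips was sequenced in 12 libraries of 4 groups. Per the paper and the submitters' processing notes, reads were aligned with HISAT2 1.0 to the NAU-NBT cotton genome and counted per gene with HTSeq 0.6.1. Counts of reads, in whole numbers, were deposited by the authors for 70477 genes with 4 lines that name no gene (31.2% to 39.1% of reads, left out here). They also deposited TMM-normalized values rounded to whole numbers (a score), not used here. Libraries were made strand-specific, and the sources used here do not say whether counting used strand.

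Counts were fitted in R 4.3.3 with edgeR 4.0.16 (TMM factors 0.857 to 1.058, filterByExpr at a minimum count of 10 and total of 15, prior count 0.125), as 1 quasi-likelihood model of 4 groups over 43938 genes with Benjamini-Hochberg adjustment. Calls had an adjusted p up to 0.05 and a log2 change of 1 or more in size. Intervals are 95%. Those on reads are exact and cover counting error only. Alternatives were DESeq2 1.42.0, limma-voom (limma 3.58.1), other scalings and filters, a replicate block, the compared groups alone and leaving out each library.

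The 7 genes and all lists were chosen with earlier results of these data known. Named were the 7 genes, the 9 other PP2C DATs, the gene of each ABA list with the widest WS24/WW24 change, and for each of the 7 the 2 most correlated DATs with a function. Functions come from the paper's list of DATs, of Arabidopsis matches. The reference gene table matched 0 of the 7 IDs, so no sequences, lengths or positions are given.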

Additional observations from a re-analysis of the deposited data

How the results depend on the processing

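In WS24/WW24, WS48/WS24, WW48/WW24 and the difference of stress effects, the number of the 7 genes called held under all alternatives run, with 1 exception. In WS24/WW24, 1 or 2 genes were called lower when single libraries were left out, 1 without WW24 replicate 2 and 2 otherwise. In WS48/WW48, on which the genes were selected, Gh_D11G2776 stood at −0.95 without WW48 replicate 1, under the threshold on size. Whether replicate numbers of different groups marked paired libraries was not settled. Correlations of same-numbered deviations were −0.18 to 0.38, over 0.1 in 6 of 18 pairs, and 6 of 12 libraries were most like their own number. With a replicate block 5 genes were higher and 2 lower in WS24/WW24. Scaling by library size alone moved the median log2 value over all genes to 0.15 in WS24/WW24, 0.13 in WW48/WW24 and −0.11 in the difference of stress effects.

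Signs turned only among estimates that passed no test. In WW48/WW24, Gh_A04G0881 went to 0.0302 with limma-voom, 0.12 with library size alone and 0.0023 with the compared groups alone, and Gh_D05G3907 to 0.0706 and 0.0125 with the first 2. In the difference of stress effects, library size alone gave −0.0689 for Gh_A05G3589 and −0.0792 for Gh_D11G2776. With single libraries left out, WW48/WW24 ranged from −0.23 to 0.31 for Gh_A04G0881, −2.84 to 1.94 for Gh_A05G0782, −0.39 to 0.0032 for Gh_A12G2380 and −0.57 to 0.46 for Gh_D05G3907. The difference ranged from −1.81 to 2.96 for Gh_A05G0782, −0.32 to 0.59 for Gh_A05G3589, −0.22 to 0.18 for Gh_A12G2380, −0.61 to 0.42 for Gh_D05G3907 and −0.23 to 0.21 for Gh_D11G2776. Few well-watered reads limit the time comparisons of Gh_D04G0015 and Gh_A05G0782.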
